A study of Danio rerio with 6 samples.

Results

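The genes described here encode the translation initiation and elongation factors of the zebrafish, with the release factors, the cytoplasmic poly(A)-binding proteins and the direct regulators that carry a factor's name. Members were chosen by gene name (eif1 to eif6, eef1, eef2, etf1, gspt1, pabpc and abce1, without eif2ak3), which gave 80 of the 12398 genes kept from the table, and all 80 passed the minimum of 10 counts. They were grouped as 11 eif2 genes (the eIF2 subunits, eif2a, eif2d and the exchange factor eIF2B), 16 eif3 genes, 22 eif4 genes, 8 eef1 genes and 23 other members. Full-thickness proximal intestine (segment S1) of adult male wild-type Ekk zebrafish was taken 2 weeks after surgery. In short bowel syndrome (SBS) fish the abdomen was opened, the middle segments were removed, the distal bowel was ligated and the proximal end was brought out as an ostomy. In sham fish the abdomen was opened and the bowel was left alone. Each group gave 3 libraries, made from the samples with the most RNA. The counts labelled SBS replicate 1 and SBS replicate 2 were identical in all 12488 rows and were counted as 1 sample, leaving SBS replicates 1 and 3 against sham replicates 1, 2 and 3.

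Translation starts when eIF2, bound to GTP and the initiator tRNA, joins eIF3 and other factors on the small ribosomal subunit, while the cap-binding eIF4E, the scaffold eIF4G and the helicase eIF4A bring in the mRNA. Elongation is run by eEF1A, which delivers aminoacyl-tRNAs, by the eEF1B subunits, which recharge eEF1A with GTP, and by eEF2, which moves the ribosome along. In mammals many of these factors share with the ribosomal proteins a pyrimidine-rich start of the mRNA, through which their synthesis follows mTORC1 activity, and the renewing intestinal epithelium is a tissue with a high demand for protein synthesis.

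Reads counted on genes were 20377652 and 38867364 in SBS replicates 1 and 3 and between 38728394 and 47142289 in the sham libraries, and every count in SBS replicate 1 is even. Levels are given as CPM, the count of a gene scaled to a fixed total after TMM normalization of the library, and as CPM per kilobase where genes are compared with each other. They are relative to the other genes in the library. Summed markers of enterocytes were at 7425 and 22871 CPM in SBS, against 59268 to 116409 CPM in sham, with 2 of 15 measured markers called lower. Those of hepatocytes were at 21607 and 4921 CPM in SBS, against 103 to 234 CPM in sham, with 19 of 21 called higher, and those of exocrine pancreas at 3089.7 and 10026 CPM in SBS, against 1828 to 48688 CPM in sham, with 0 of 15 called. Those of leukocytes were at 1329 and 11519 CPM in SBS, of which the neutrophil gene mpx alone held 286 and 11098 CPM, against 187 to 391 CPM in sham, with 1 of 8 called higher. Of all genes tested, 2.06% were called lower and 2.49% higher. Both SBS libraries lay below all sham libraries for 13 of the 15 enterocyte markers (24.3% of all genes) and above them for 0 (22.6% of all genes). No marker measured in these 4 lists was at 0 throughout a group. The part of these cell types in the values below was not tested, and in bulk tissue fewer cells of a type and less RNA per cell cannot be told apart.

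Relative to the other genes, most translation factor genes stood lower in SBS than in sham, but only 1 passed the test. The log2 fold change of SBS over sham was below 0 for 61 of the 80 members (76.2%), against 50.0% of the 12381 genes tested, and its median was -0.58 over the members and 0.000381 over all genes. Without TMM, by library totals only, the median of all genes moved to 0.82 and that of the members to 0.25. The same number of members, 61, lay below the median of all genes. A change of scaling moves all genes by nearly the same amount, so this count could hardly differ and is no separate evidence. Of the members, 53 are among the 3096 genes with the highest levels, whose median was -0.26 with TMM and of which 1955 had a value below 0. Both SBS libraries lay below all 3 sham libraries for 42 members (52.5%, against 24.3% of all genes) and above them for 6 (7.5%, against 22.6%). Among the 3096 genes with the highest levels, both SBS libraries lay below all sham libraries for 1172 and above them for 545.

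A gene was called on an adjusted p (Benjamini-Hochberg, quasi-likelihood test of edgeR) under 0.05 together with a log2 fold change of 1.5 or more in either direction. By this rule 1 member was called lower, where 2.06% of all genes were, and 0 were called higher, where 2.49% of all genes were. At an unadjusted p under 0.05 the quasi-likelihood test gave 28 members lower (13.1% of all genes) and 2 higher (15.7% of all genes). Among the 3096 genes with the highest levels it gave 775 lower and 353 higher. The other tools, with the same limits, called more members. The likelihood ratio test of edgeR called 8 lower and 1 higher (5.78% and 9.81% of all genes), the Wald test of DESeq2 called 6 and 1 (5.74% and 9.51%), and RUVg with 1 factor called 4 and 0 (5.88% and 7.77%).

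**Figure D1:**
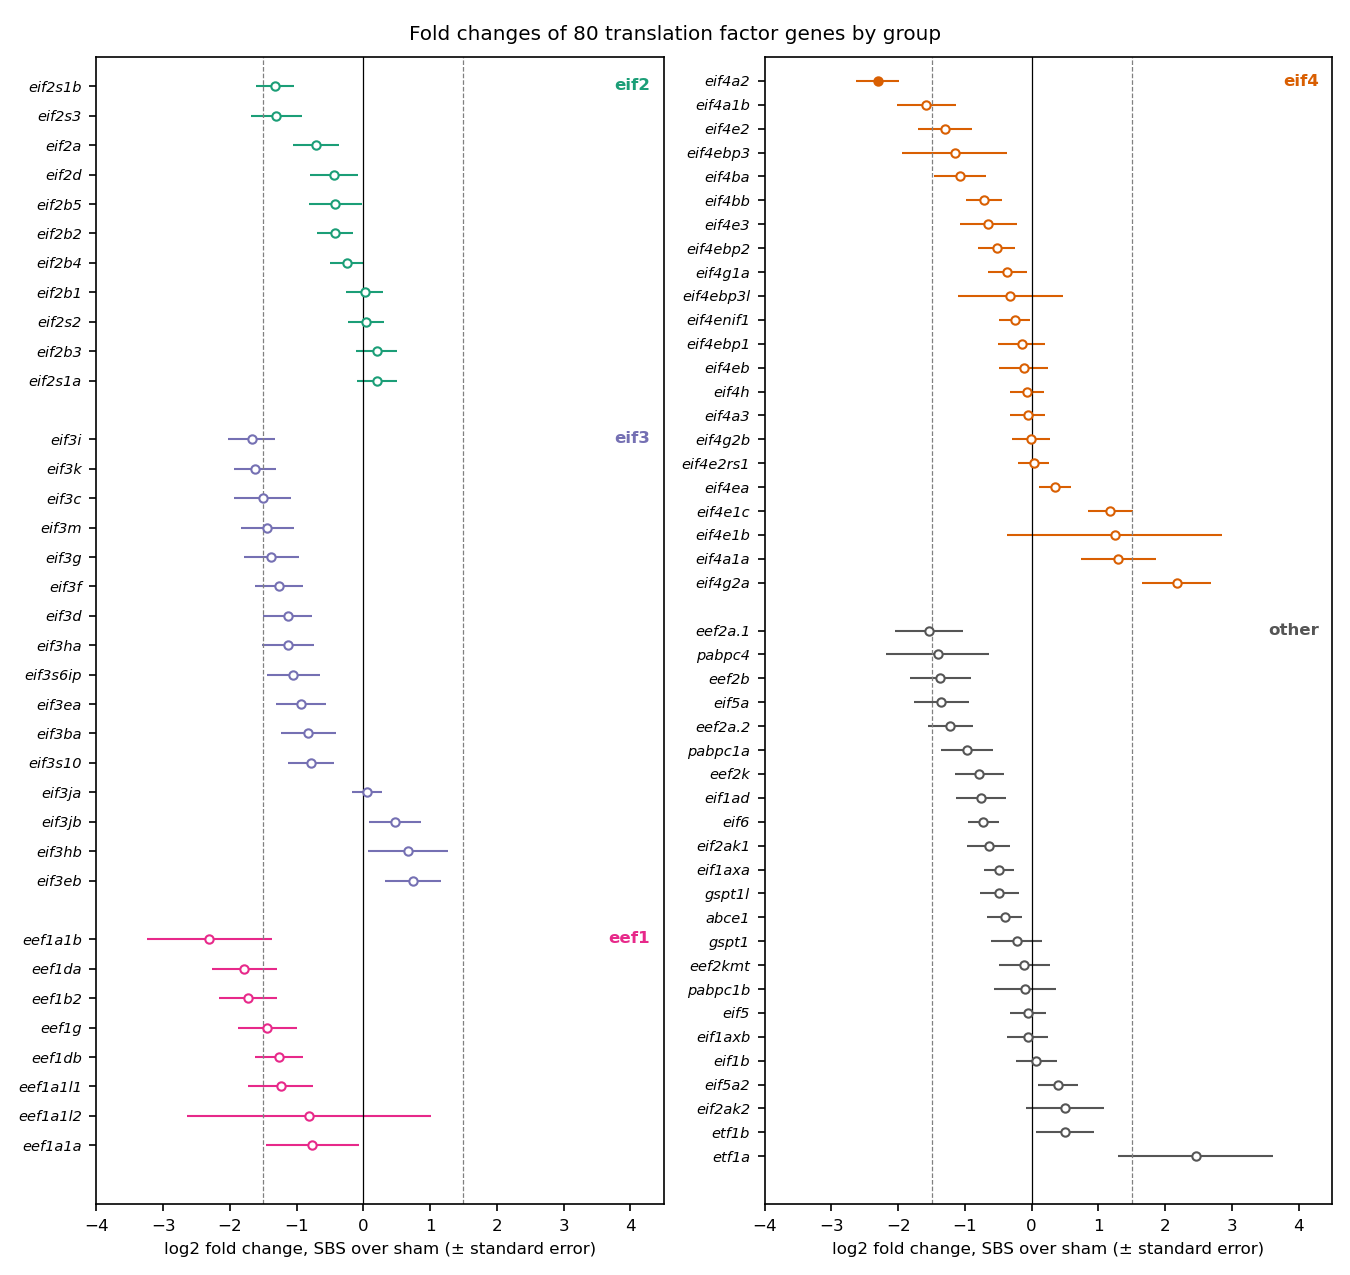
Log2 fold change of SBS over sham (x axis) for the 80 translation factor genes, by group and ordered by value, with bars of 1 standard error from edgeR's quasi-likelihood fit with TMM. Dashed lines mark the fold limit of 1.5, and eif4a2, the 1 gene called, is the filled point; all 8 eef1 genes lie left of 0, and 7 of them do so with library totals.

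The groups differed in how far they lay from all other genes. The median log2 fold change was -1.35 over the eef1 genes, -1.09 over the eif3 genes, -0.42 over the eif2 genes and -0.20 over the eif4 genes, and with library totals in place of TMM those of eef1 and eif3 were -0.52 and -0.23 while those of eif2 and eif4 turned positive, at 0.41 and 0.65. Leaving out SBS replicate 1 gave -0.15 over eif2 and -0.07 over eif4 genes, leaving out SBS replicate 3 gave -0.37 over eif4 genes, leaving out sham replicate 3 gave -0.06 over eif4 genes, and leaving out sham replicate 1 gave -0.23 over eif2 genes. With library totals all 4 group medians stayed below the median of all genes, but a shift common to all genes leaves their order nearly unchanged. A share of the reads on genes needs no TMM factor, but it is itself a scaling by library totals. The 80 members together took 4.11% and 3.86% of the reads on genes in SBS replicates 1 and 3, against 5.32%, 4.53% and 4.996% in sham replicates 1, 2 and 3, with Wilson 95% intervals such as 4.10% to 4.12% for SBS replicate 1, which cover counting error only. The summed eif4 genes went against this order, with 0.350% and 0.279% of the reads in SBS, against 0.252%, 0.235% and 0.250% in sham. In this sum eif4a1a had 15048 and 9603 counts in SBS replicates 1 and 3, against 3395, 3616 and 7080 in sham. For eif4g2a the counts were 6136 and 3094 in SBS, against 954, 865 and 1149 in sham. Log2 fold changes were negative for 16 of the 22 eif4 genes with TMM and for 5 with library totals. The eif2 genes took nearly the same share throughout, at 0.119% and 0.110% in SBS, against 0.1199%, 0.108% and 0.117% in sham. Among the sham libraries, replicate 2 had the lowest level for 55 of the 80 members, against 35.8% of all genes. Sham replicate 2 also had the lowest sums of exocrine pancreas, enterocyte and smooth muscle markers and the highest of leukocyte markers among the sham libraries. The enterocyte sums differed mainly through apoa1a, at 68828, 13341 and 41496 CPM in sham replicates 1, 2 and 3. Other enterocyte markers had no common order, with rbp2a and mep1a.1 lowest but vil1 and anpepb highest in sham replicate 2. The part of these cell types in this was not tested.

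Of the factors that open initiation on the small subunit, eif1b, eif1axb and eif5 overlapped between the groups, while eif1axa did not. Nor did eif1ad, a member by its name. The gene eif1b, a partner in start codon selection, was at 340.0 and 312 CPM in SBS libraries, against 287, 271 and 374 CPM in sham libraries. For eif1axb, an eIF1A gene, the levels were 124.8 and 188 CPM in SBS, against 150.1, 178 and 159 CPM in sham. Both SBS values of eif5, which makes eIF2 hydrolyse its GTP, lay within the sham range, at 201 and 205 CPM in SBS, against 211, 196 and 226 CPM in sham. The log2 fold changes of these 3 genes lay between -0.06 and 0.07. The other eIF1A copy, eif1axa, was at 25.4 and 22.7 CPM in SBS, against 34.9, 34.2 and 32.0 CPM in sham. The eIF1A-like gene eif1ad was at 13.3 and 27.0 CPM in SBS, against 39.5, 30.6 and 32.4 CPM in sham. Both lay lower in SBS with TMM, but their log2 fold changes were 0.34 and 0.04 with library totals. Likewise eif6, which keeps the large subunit from joining early, was at 43.3 and 40.3 CPM in SBS, against 66.4, 70.9 and 70.2 CPM in sham, without overlap, though its sign turned with library totals (0.10).

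The 3 subunits of eIF2 differed from each other. The γ subunit gene eif2s3 (ENSDARG00000008292, chromosome 24), whose product binds GTP and the tRNA, was at 302 and 282 CPM in SBS, against 803, 494 and 863 CPM in sham. Its log2 fold change was -1.30 (standard error 0.39, adjusted p = 0.101 in the quasi-likelihood test). The β subunit gene eif2s2 (ENSDARG00000053047, chromosome 6) overlapped, at 181 and 212 CPM in SBS libraries, against 187, 189 and 197 CPM in sham libraries. The balance between both genes can be read within a library, where no scaling enters. There the level per length of eif2s2 was 0.936 and 1.17 times that of eif2s3 in SBS and 0.362, 0.597 and 0.356 times in sham, without overlap.

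The α subunit, which the stress kinases phosphorylate, has a pair of gene copies. The main copy eif2s1b (ENSDARG00000052178, chromosome 20) was at 118 and 127 CPM in SBS, against 301, 283 and 340.4 CPM in sham. Both SBS libraries lay below the sham libraries, and the log2 fold change was -1.33 (standard error 0.29, adjusted p = 0.0622). The lesser copy eif2s1a overlapped, at 45.5 and 34.5 CPM in SBS and 37.5, 25.9 and 40.2 CPM in sham. Over the 5 eIF2B genes, which reload eIF2 with GTP, log2 fold changes ran from -0.42 for eif2b5 and eif2b2 to 0.20 for eif2b3. The relatives eif2a and eif2d, which in mammals can bring a tRNA to the ribosome without eIF2, had values of -0.71 and -0.44. With library totals these were 0.10 and 0.34, and those of the eIF2B genes ran from 0.41 to 1.02. Of the kinases that phosphorylate eIF2, eif2ak1 was at 14.5 and 9.39 CPM in SBS and 22.3, 15.1 and 18.5 CPM in sham, just without overlap. Its log2 fold change was 0.22 with library totals. The relative of the double-stranded RNA sensor PKR, eif2ak2, was at 18.6 and 5.64 CPM in SBS and 12.001, 8.18 and 5.46 CPM in sham, with overlap.

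The eIF3 genes fell into a high-level and a low-level set, and the fold changes parted along the same line. Of the 16 eif3 genes, 12 had a mean level above 40 CPM per kilobase, a limit chosen after the levels were seen; the gene just below it, eif3ja, had a mean of 36.5 and the one just above it, eif3s10, a mean of 129. The 12 covered every core subunit letter in the table (a as eif3s10, b, c, d, e, f, g, h, i, k, l as eif3s6ip, and m). For all 12, both SBS libraries lay below all sham libraries, as for 24.3% of all genes and for 1172 of the 3096 genes with the highest levels. The log2 fold changes of the 12 ran from -1.67 to -0.78, whereas with library totals they ran from -0.83 to 0.06, with eif3ba and eif3s10 above 0. The adjusted p of these 12 genes ran from 0.0511 to 0.246 in the quasi-likelihood test, so that 0 passed.

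The gene closest to the threshold was eif3k (ENSDARG00000068289, chromosome 15), at 77.3 and 95.05 CPM in SBS, against 287, 213 and 296 CPM in sham. Its log2 fold change was -1.62 (standard error 0.32, adjusted p = 0.0511), and with edgeR's own filter on low counts it was called (adjusted p = 0.0481). For eif3i (ENSDARG00000017445, chromosome 19), the gene of a β-propeller subunit, the levels were 247 and 268 CPM in SBS, against 907, 648 and 907 CPM in sham. The SBS libraries lay far below the lowest sham library, and the log2 fold change was -1.67 (standard error 0.35, adjusted p = 0.0576). A scaffold subunit gene, eif3c (ENSDARG00000016443, chromosome 12), was at 412 and 401 CPM in SBS and 1262, 739 and 1466 CPM in sham (log2 fold change -1.51, standard error 0.43, adjusted p = 0.0946). The gene eif3m (ENSDARG00000013931, chromosome 18) was at 261 and 234 CPM in SBS and 740.2, 448 and 827 CPM in sham (-1.44, standard error 0.40, adjusted p = 0.0904). In all 4 of these genes the SBS libraries differed from each other by a smaller factor than the highest and lowest sham libraries did. A range over 3 libraries tends to be wider than a range over 2, so this does not compare the spread of the groups. The gene eif3f (ENSDARG00000077533, chromosome 1), with the highest level per length of the complex as a mean over the 5 libraries though in neither group alone, was at 205 and 249 CPM in SBS and 603, 407 and 625 CPM in sham (-1.26, standard error 0.36, adjusted p = 0.0938).

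Sham replicate 2 was the lowest sham library for all 12 of these eif3 genes. Relative to the sham mean on the log2 scale, it lay between -0.66 and -0.31, whereas SBS replicate 1 lay between -1.78 and -0.88 and SBS replicate 3 between -1.62 and -0.69. Summed over the 12 genes, the level per length was 1860 and 2035 CPM per kilobase in SBS, against 5077, 3306 and 5578 CPM per kilobase in sham. The highest of the 12 subunits stood 3.05 and 2.88 times above the lowest in SBS, against 4.16, 4.06 and 3.92 times in sham, so that the subunit genes were nearer to each other in level in SBS. The remaining 4 genes are the second copies eif3eb and eif3hb and both genes of eIF3j, a loosely bound subunit, and their log2 fold changes ran from 0.05 to 0.74. The gene eif3ja was nearly level across all 5 libraries, at 67.1 and 64.8 CPM in SBS and 64.6, 63.0 and 63.3 CPM in sham. The copy eif3eb was at 3.72 and 2.41 CPM in SBS, against 1.92, 1.55 and 2.01 CPM in sham, and eif3hb was at 8.36 and 2.39 CPM in SBS, against 3.09, 2.61 and 4.41 CPM in sham. These copies made up at most 5.92% of the summed level per length with their a copies in any library.

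**Figure D2:**
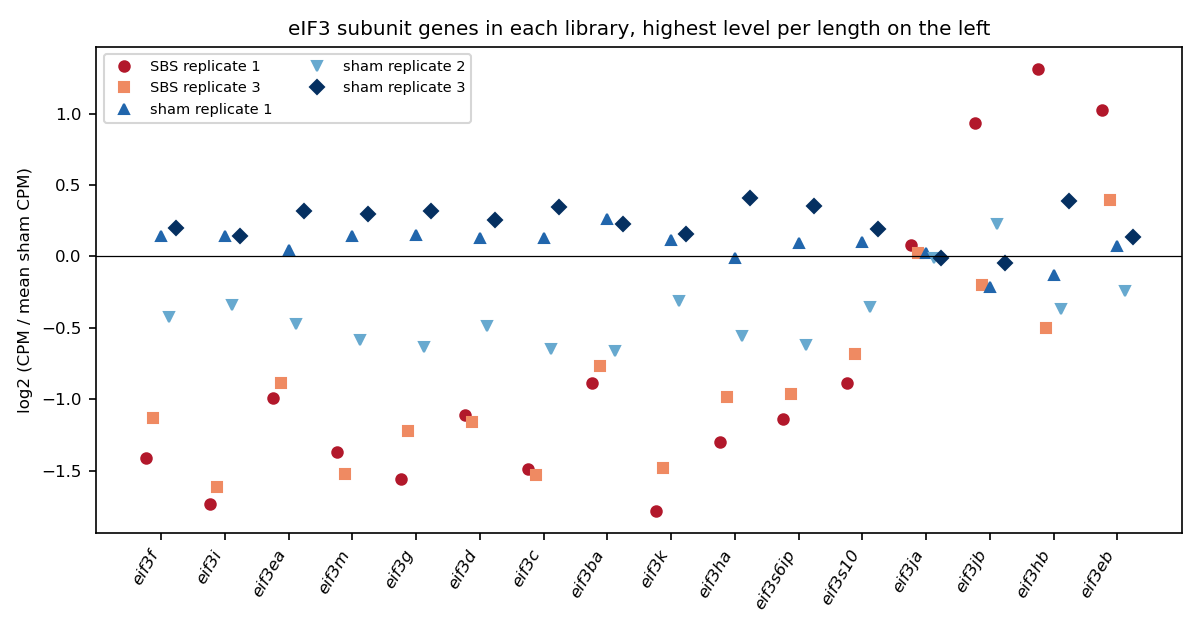
Level of each eif3 gene in each library as log2 of its CPM over the mean sham CPM (y axis), with genes ordered from the highest to the lowest level per length, as a mean over the 5 libraries (x axis), and 1 symbol per library. The 12 genes on the left have both SBS symbols under all sham symbols (24.3% of all genes), whereas the 4 genes on the right do not. With library totals this held for 6 of the 12. Sham replicate 2 lies under the other sham libraries for all 12 and for 3 of the 4.

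The eif4 group held both the gene that passed the test and the members with the clearest higher levels in SBS, eif4g2a and eif4e1c. The helicase gene eif4a2 (ENSDARG00000016477, chromosome 2) fell to 20.8 and 20.0 CPM in the SBS libraries, against 127, 77.0 and 99.0 CPM in the sham libraries. It averaged 20.4 ± 0.526 CPM in SBS (SD, n = 2) and 101 ± 25.1 CPM in sham (SD, n = 3). The fold change on the log2 scale was -2.31, with a standard error of 0.33 and an adjusted p of 0.0263 in the quasi-likelihood test of edgeR. The call was lost without any 1 of sham replicates 1, 2 and 3 (adjusted p = 0.103, 0.0833 and 0.117 in that test). In these fits 0 of all genes tested were called, so the loss is not particular to eif4a2. With any 1 library left out, its value stayed between -2.43 and -2.11. With library totals the value was -1.46, which is under the fold limit in size. The deposited annotation gives the type of eif4a2 as nonsense_mediated_decay, and 6 of the 80 members have a type other than protein coding.

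The eIF4A helicase genes, which unwind the start of the mRNA, did not share 1 direction. The main copy eif4a1b (ENSDARG00000003032, chromosome 5) was at 312 and 494 CPM in SBS, against 1400.5, 820.3 and 1392 CPM in sham. Its log2 fold change was -1.58 (standard error 0.45, adjusted p = 0.0935). The other copy of the same gene, eif4a1a, was at 492 and 186 CPM in SBS and 98.9, 102 and 212 CPM in sham, so that SBS replicate 1 stood above all other libraries and SBS replicate 3 lay within the sham range. Of the level per length of eif4a1a, eif4a1b and eif4a2 together, eif4a1a made up 52.6% and 21.5% in SBS, against 4.64%, 7.84% and 9.69% in sham. The share of eif4a1b was 44.1% and 75.2% in SBS and 86.7%, 83.6% and 83.8% in sham, and that of eif4a2 was 3.22% and 3.34% in SBS and 8.63%, 8.59% and 6.53% in sham. None of these 3 shares overlapped between the groups. The relative eif4a3, which serves the exon junction complex and was left out of these shares, was at 84.3 and 96.9 CPM in SBS and 90.7, 85.0 and 108 CPM in sham.

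Among the scaffold genes, eif4g2a (ENSDARG00000020377, chromosome 7) had the largest positive log2 fold change of all members apart from etf1a, which had few counts. It encodes a relative of eIF4G that lacks the eIF4E-binding part and serves cap-independent initiation in mammals. It was at 200.5 and 60.02 CPM in SBS, against 27.8, 24.3 and 34.5 CPM in sham, without overlap. The log2 fold change was 2.17 (standard error 0.52, adjusted p = 0.0725 in the quasi-likelihood test). It was 1.06 without SBS replicate 1 and 2.80 without SBS replicate 3, each with 1 SBS library left. The gene was called by the likelihood ratio test (adjusted p = 0.00267), by the Wald test of DESeq2 (adjusted p = 0.00196) and with library totals. With RUVg it passed the limit on adjusted p but not the fold limit, and with the replicate block it was not called. The other copy eif4g2b was at 290.3 and 303 CPM in SBS and 275, 329 and 291 CPM in sham, with overlap. Of both copies together, eif4g2a made up 42.0% and 17.2% in SBS, against 9.56%, 7.18% and 11.04% in sham. The main scaffold gene eif4g1a was at 166 and 118 CPM in SBS, against 192, 174 and 184 CPM in sham. Its log2 fold change was -0.36 with TMM and 0.48 with library totals.

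The genes of the cap-binding protein eIF4E were at low levels. The copy eif4e1c was at 36.6 and 29.3 CPM in SBS, against 12.4, 11.1 and 20.2 CPM in sham, and eif4ea was at 26.7 and 29.1 CPM in SBS, against 19.7, 20.9 and 25.1 CPM in sham. Both genes were without overlap, with SBS on the higher side. For eif4eb the values were 13.4 and 28.1 CPM in SBS and 23.5, 23.7 and 20.5 CPM in sham, with overlap. The germline copy eif4e1b was listed at 0 and 106 counts in SBS replicates 1 and 3 and 31, 4 and 10 counts in sham, while summed testis and germ cell markers (5 of 18 measured) were at 22.9 and 29.3 CPM in SBS and 11.9 to 21.6 CPM in sham. The gene eif4e2, which encodes the cap-binding repressor 4EHP, was at 2.74 and 4.54 CPM in SBS, against 8.21, 6.998 and 11.7 CPM in sham, without overlap. Its relative eif4e2rs1 was nearly level, at 23.3 and 28.9 CPM in SBS and 24.96, 25.5 and 26.1 CPM in sham.

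Of the 4E-binding proteins, which mTORC1 releases from eIF4E, eif4ebp3l (ENSDARG00000041607, chromosome 14) has the highest level per length as a mean over the 5 libraries, which rests on sham replicate 3 (249 CPM per kilobase); eif4ebp2 was higher in SBS replicate 3 and in sham replicates 1 and 2. The libraries of eif4ebp3l overlapped widely, at 144 and 80.9 CPM in SBS and 97.2, 43.6 and 280.4 CPM in sham (log2 fold change -0.32, standard error 0.79, adjusted p = 0.818). Its sign turned positive without sham replicate 3 (0.71), without SBS replicate 3 (0.03) and with library totals (0.63). The more even eif4ebp2 was at 210.2 and 224 CPM in SBS, against 305, 332 and 299 CPM in sham, without overlap. The gene eif4ebp3 had 1 sham library apart from the others, at 10.7 and 10.2 CPM in SBS and 14.6, 7.56 and 47.5 CPM in sham. The helicase cofactor gene eif4bb was at 120.1 and 138 CPM in SBS, against 216, 212 and 207 CPM in sham. Its copy eif4ba was at 16.3 and 36.1 CPM in SBS, against 58.4, 52.0 and 54.7 CPM in sham, while eif4h overlapped. Of these genes without overlap, eif4ebp2 (0.29) and eif4bb (0.10) had a positive log2 fold change with library totals.

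The main elongation factor genes, eef1a1l1 and eef2b, had the highest levels of all members and lay lower in both SBS libraries. By mean level per length over the 5 libraries, eef1a1l1 ranks 8 and eef2b ranks 24 among the 12381 genes tested, and these genes together held 53.0% and 51.9% of all member reads in SBS, against 57.0%, 58.7% and 57.0% in sham. The main eEF1A gene eef1a1l1 (ENSDARG00000020850, chromosome 19) was at 9264 and 9396 CPM in SBS, against 23821, 17313 and 24967 CPM in sham. Its log2 fold change was -1.24 (standard error 0.49, adjusted p = 0.167). As a share of library totals, without TMM, it took 1.39% and 1.25% of the reads on genes in SBS, against 1.84%, 1.59% and 1.76% in sham, also without overlap. The main eEF2 gene eef2b (ENSDARG00000100371, chromosome 2) was at 5254 and 5687 CPM in SBS, against 15438, 11628 and 15286 CPM in sham (log2 fold change -1.37, standard error 0.46, adjusted p = 0.124).

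Among the subunits of eEF1B, which exchange GDP for GTP on eEF1A, eef1b2 and eef1da had more negative fold changes than eef1a1l1 and eef2b, a difference that was not tested. The catalytic β subunit gene eef1b2 (ENSDARG00000044521, chromosome 6) was at 623 and 542 CPM in SBS, against 2243, 1277 and 2249 CPM in sham (log2 fold change -1.72, standard error 0.43, adjusted p = 0.0786). For the δ subunit gene eef1da (ENSDARG00000102291, chromosome 2) the levels were 225 and 239 CPM in SBS, against 1038, 434 and 920.4 CPM in sham (-1.78, standard error 0.48, adjusted p = 0.0876). Both genes were called by the likelihood ratio test, by the Wald test of DESeq2 and by RUVg. The structural γ subunit gene eef1g (ENSDARG00000056119, chromosome 14) was at 1041 and 1235 CPM in SBS, against 3670.1, 2087 and 3510.5 CPM in sham (-1.44, standard error 0.44, adjusted p = 0.107). The second δ gene eef1db was at 258 and 390 CPM in SBS, against 811, 688 and 839.8 CPM in sham. In all 4 of these genes sham replicate 2 lay lowest in sham with TMM. Both SBS libraries lay below all sham libraries, also with library totals.

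The minor copies were less even. The gene eef1a1l2 was at 6.21 and 156 CPM in SBS and 393, 10.99 and 22.7 CPM in sham, so that SBS replicate 3 and sham replicate 1 stood apart from the other 3 libraries. It shares its Ensembl identifier and chromosome with eef1a1l1, so reads may be split between them in an uncertain way. The lowest eEF1A copy, eef1a1b (ENSDARG00000069951, chromosome 1), had 2 and 20 counts in SBS and 64, 37 and 21 counts in sham. Its log2 fold change was -2.31 with a standard error of 0.94 (adjusted p = 0.173). Leaving out SBS replicate 1 gave -1.59, and leaving out SBS replicate 3 gave -4.10. The tandem copy eef2a.1 (ENSDARG00000042094, chromosome 22) was at 11.2 and 19.0 CPM in SBS and 69.4, 27.2 and 35.6 CPM in sham (-1.54, standard error 0.51, adjusted p = 0.1196). The kinase gene eef2k, whose product switches eEF2 off, was at 35.2 and 68.3 CPM in SBS, against 76.1, 87.7 and 103 CPM in sham, without overlap, and its value was 0.02 with library totals.

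**Figure D3:**
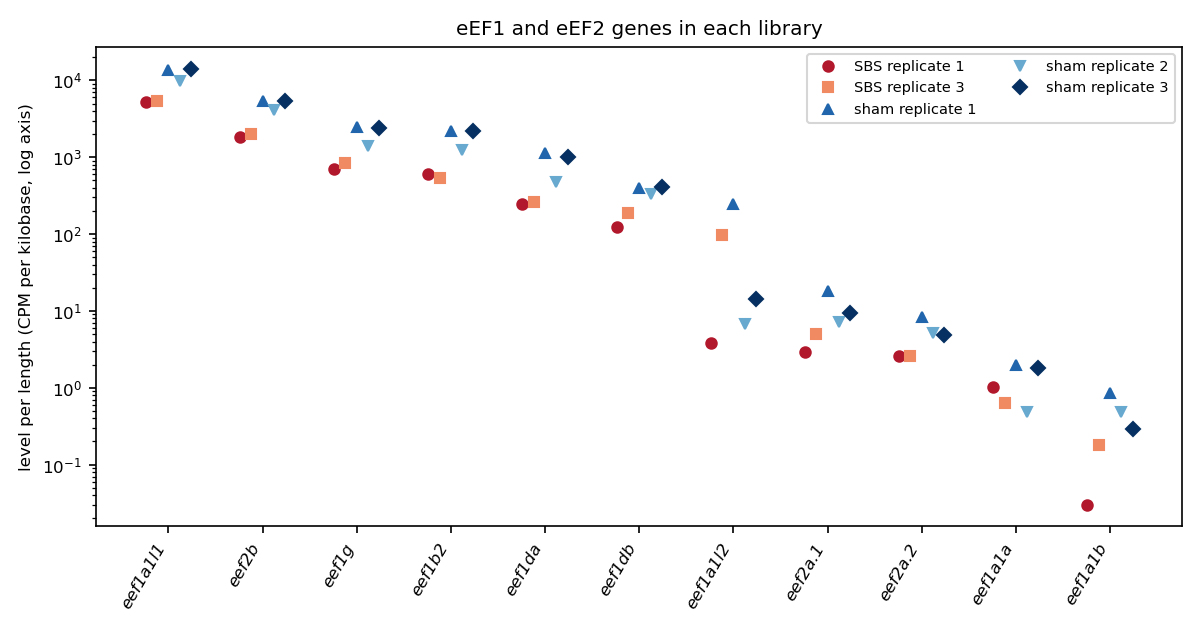
Level per length (CPM per kilobase, log y axis) of the 11 eEF1 and eEF2 genes (x axis) in each library, with 1 symbol per library. Both SBS symbols lie under all sham symbols except for eef1a1l2 and eef1a1a (with library totals also eef1a1b, eef2a.1 and eef2a.2); for eef1a1l2, SBS replicate 3 (156 CPM) and sham replicate 1 (393 CPM) stand above the other 3 libraries.

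Both genes of eIF5A, whose hypusine-bearing product helps the ribosome through difficult peptide bonds, were without overlap but on opposite sides. The main copy eif5a was at 631 and 912 CPM in SBS, against 2188, 1532 and 2193 CPM in sham. The copy eif5a2 was at 409.6 and 492 CPM in SBS, against 324, 395 and 313 CPM in sham. The share of eif5a2 in their summed level per length was 25.3% and 22.0% in SBS, against 7.17%, 11.8% and 6.92% in sham. A higher share of the minor copy was also seen in the α subunit of eIF2, where eif2s1a made up 25.4% and 19.3% in SBS and 9.94%, 7.49% and 9.45% in sham. The shares hold whatever the scaling between libraries, since each is taken within a library. They are given as a description and were not tested. The cap-binding repressor genes went the other way without overlap, where the minor copy eif4e2 made up 8.02% and 10.4% in SBS and 19.6%, 16.9% and 24.9% in sham. In eef1d the shares overlapped, since eef1da made up 66.4% and 58.2% of the eef1d level in SBS and 74.4%, 58.9% and 71.3% in sham, and eef2b made up 99.5% or more of the eEF2 level in every library.

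**Figure D4:**
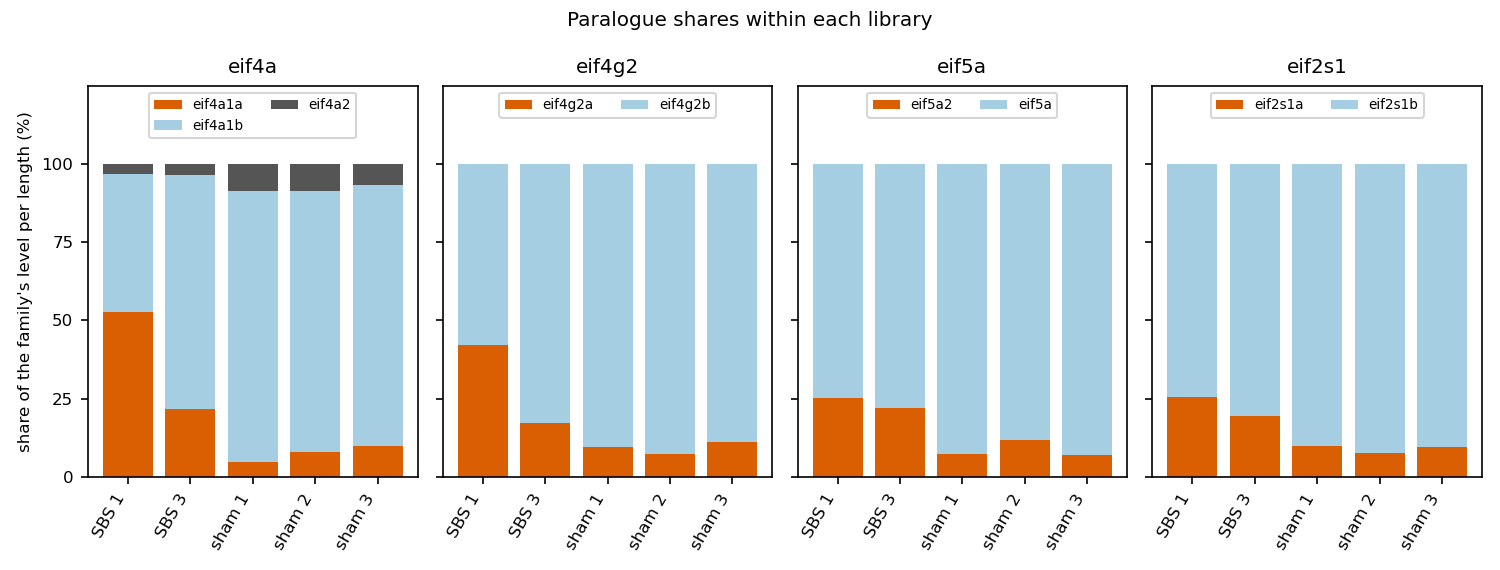
Share of each gene copy in its family's summed level per length (y axis, %) in each library (x axis) for eif4a, eif4g2, eif5a and eif2s1. The copies drawn at the bottom (eif4a1a, eif4g2a, eif5a2, eif2s1a) have a larger share in both SBS libraries than in any sham library, with 52.6% for eif4a1a in SBS replicate 1.

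Among the termination and recycling genes 0 were called, where 2.49% of all genes were called higher and 2.06% lower. The release factor gene etf1b, which reads the stop codon, was at 220 and 99.0 CPM in SBS and 100.03, 90.8 and 146 CPM in sham, with SBS replicate 1 above the other libraries. Its copy etf1a had only 16 and 3 counts in SBS and 1, 2 and 2 counts in sham. The partner GTPase gene gspt1l was at 251 and 221 CPM in SBS, against 351, 301 and 338 CPM in sham, and the recycling ATPase gene abce1 was at 120.4 and 101 CPM in SBS, against 147, 133 and 161 CPM in sham. Both lay without overlap below sham with TMM and above it with library totals, where their log2 fold changes were 0.35 and 0.44. The main cytoplasmic poly(A)-binding protein gene, pabpc1a (ENSDARG00000017219, chromosome 16), was at 1689 and 2138 CPM in SBS, against 3960.4, 3247 and 4047 CPM in sham (log2 fold change -0.97, standard error 0.39, adjusted p = 0.171). Its relative pabpc4 was at 5.10 and 19.0 CPM in SBS and 44.7, 12.3 and 39.0 CPM in sham, with overlap.

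The genes that work beside the factors were read from lists outside the name rule. All 80 cytosolic ribosomal protein genes had a negative log2 fold change (78 of them with library totals). The median was -1.32 and the quartiles were -1.39 and -1.22, though 0 were called (2.06% of all genes lower) and 75 had an unadjusted p under 0.05 (13.1% of all genes lower). Of the 20 measured genes of cap binding and mTORC1 (of 33 listed), 14 had lower levels (8 with library totals) and the median was -0.48, which became -0.71 without SBS replicate 1 and -0.28 without SBS replicate 3. The 1 called among them was mknk2a, a kinase gene of the eIF4E pathway, which fell to 47.3 and 29.2 CPM in SBS, against 152, 171 and 175 CPM in sham. The eIF4A inhibitor gene pdcd4b was at 6.67 and 24.7 CPM in SBS, against 133, 125.2 and 59.3 CPM in sham, with a log2 fold change of -2.75 that did not pass (adjusted p = 0.0804 in the quasi-likelihood test).

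The 16 measured genes of the response to eIF2 phosphorylation (of 21 listed) had a median log2 fold change of 0.59, with 9 higher and 7 lower. The median was 0.11 without SBS replicate 1 and 0.33 without SBS replicate 3. With library totals it was 1.45 and 14 of the 16 were higher, as were 80.6% of all genes. The gene sesn2, which encodes an inhibitor of mTORC1, was the 1 called, where 2.49% of all genes were called higher and 2.06% lower. It rose to 27.6 and 12.96 CPM in SBS, against 3.84, 4.13 and 2.25 CPM in sham (2.57 on the log2 scale, adjusted p = 0.0393 in the quasi-likelihood test). The transcription factor gene atf4a was at 621 and 324 CPM in SBS, against 334, 260.3 and 274 CPM in sham, with overlap. Its copy atf4b was at 279.7 and 157 CPM in SBS, against 124, 135 and 139 CPM in sham, without overlap. In both copies SBS replicate 1 stood highest. With TMM, 4 of the 16 genes, sesn2 and atf4b among them, lay without overlap above sham (22.6% of all genes). Below it lay 3 (24.3% of all genes). The 3 lower genes were nupr1, ddit3 and cebpg, with log2 fold changes of -1.58, -0.81 and -0.55. The 23 measured genes of other cytosolic translation steps (of 34 listed) had a median of -0.18 (0.65 with library totals, -0.05 without sham replicate 3 and -0.36 without SBS replicate 3). Of them 1 was called higher, where 2.49% of all genes were. This was metap2a, a methionine aminopeptidase gene, at 4.71 and 2.42 CPM in SBS and 0.204, 0.422 and 0.210 CPM in sham.

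**Figure D5:**
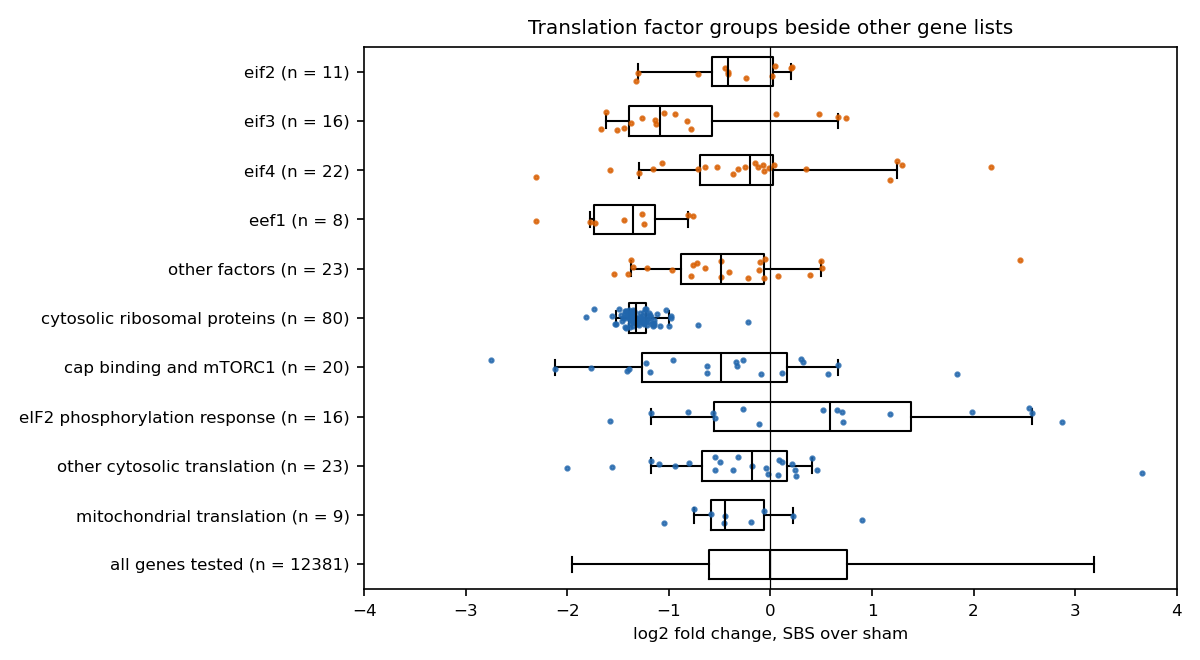
Log2 fold change of SBS over sham (x axis) for the 5 groups of translation factor genes (orange points), 5 lists of genes that work beside them (blue points) and all 12381 genes tested, with TMM; boxes span the interquartile range with the median, whiskers the 5th to 95th percentile. The box of the ribosomal proteins (median -1.32) lies beside those of eef1 (-1.35) and eif3 (-1.09), and with library totals these medians are -0.49, -0.52 and -0.23 beside 0.82 for all genes.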

How the data were processed

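RNA of 3 SBS and 3 sham proximal intestines was sequenced. Per the authors' methods, reads were checked with FastQC, trimmed with Trimmomatic, aligned with STAR to danRer7 and counted per transcript with HTSeq-count, while the submitters' processing notes name GRCz10 (danRer10). Versions and the strand setting are not given in the sources used here. The counts were deposited by the authors as raw counts per gene. RPKM values, made by the authors with edgeR, were deposited too and were not used, nor were the deposited log2 fold changes, likelihood ratios, p-values and FDR of the authors' own test. Gene lengths are those of the table.

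Of 12488 rows, 70 are spike-ins, 12418 are genes and 20 repeat a gene, leaving 12398. Genes with at least 10 counts over the 5 distinct libraries were tested (12381). R 4.3.3 was used with edgeR 4.0.16 (TMM, glmQLFit and glmQLFTest, two-sided) and DESeq2 1.42.0; p-values were adjusted over all genes tested. With 2 replicates in 1 group, and no statement of separate pools, p-values measure the spread between these libraries. The spike-in amount per sample is not stated, so spike-ins, at 1.72% and 2.43% of reads in SBS and 0.663% to 0.810% in sham, were not used for scaling.

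Fold changes with statistics are given for every called member, the 12 largest absolute values among members whose groups do not overlap, and the 2 highest levels per length in each group; other members are described by levels. Members and lists were chosen with earlier results of these data known. Alternatives were other normalizations, filters and tests, RUVg, a replicate block, SBS replicate 1 counts divided by 2, and leaving out each library. The fits were tested on simulated data.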

Additional observations from a re-analysis of the deposited data

How the results depend on the processing

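The number of members called, 1 in the quasi-likelihood test with TMM, was also 1 with DESeq2 size factors, with upper-quartile factors, with a minimum of 1 count and with the counts of SBS replicate 1 divided by 2. It was 2 with filterByExpr (2.67% of all genes called higher and 2.25% lower) and 4 with RUVg (7.77% and 5.88%). DESeq2's Wald test gave 7 (9.51% and 5.74%) and the likelihood ratio test 9 (9.81% and 5.78%). With library totals only the number was 4, with eif3eb, eif4a1a, eif4e1c and eif4g2a called higher (as were 16.9% of all genes). The log2 fold change of eif4a2 was -1.46 in that fit. In the settings with 1 called member, 2.44% to 2.52% of all genes were called higher and 1.85% to 2.09% lower. Leaving out 1 library gave between 0 and 7 called members. The count was 0 without any 1 sham library, as it was over all genes, and 7 without SBS replicate 3 (10.5% of all genes called higher and 8.35% lower), a fit that takes the spread of the single SBS library left from the sham libraries, and the cause was not tested.

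With library totals only, the median log2 fold change was 0.25 over all members, 0.41 over eif2, -0.23 over eif3, 0.65 over eif4 and -0.52 over eef1 genes, beside 0.82 over all genes tested. With RUVg the eif2 median was -0.21. With 1 library left out the medians ran from -0.75 to -0.46 over all members, -0.55 to -0.15 over eif2, -1.26 to -0.83 over eif3, -0.37 to -0.06 over eif4 and -1.61 to -1.27 over eef1 genes. The sign of eif4ebp3l turned with library totals (0.63), and with 1 library left out its value ran from -0.79 to 0.71, positive without sham replicate 3 (0.71) and without SBS replicate 3 (0.03). The replicate block called 0 members, and 24 had an unadjusted p under 0.05, all lower (8.17% of all genes); over all genes it called 0 as well. Numbers 1 and 3 occur in both groups, and the deviations of same-numbered libraries had correlations of -0.114 and -0.120 over genes. With 2 SBS libraries these values cannot decide whether same-numbered libraries were handled together, which the labels do not state.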

Other observations

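The mitochondrial translation machinery was measured in 9 of 12 listed genes, of which 7 had lower and 2 had higher levels in SBS, against 1 and 8 with library totals, where 80.6% of all genes were higher. Their median log2 fold change was -0.44 (0.35 with library totals, -0.22 without SBS replicate 1, -0.27 without sham replicate 2 and -0.67 without SBS replicate 3). By the quasi-likelihood test of edgeR 0 were called, where 2.49% of all genes were called higher and 2.06% lower. At an unadjusted p under 0.05 in this test, 1 was higher (15.7% of all genes) and 0 were lower (13.1% of all genes). The elongation factor gene tufm was at 67.2 and 96.5 CPM in SBS, against 103, 128 and 106 CPM in sham. Its exchange factor gene tsfm went the other way, at 13.4 and 12.2 CPM in SBS, against 6.93, 5.79 and 7.77 CPM in sham, without overlap. Of all genes tested, 22.6% were without overlap in this direction.

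Several genes outside the name rule that work on the factors differed by copy or partner. The eIF4E kinase genes mknk1 and mknk2a lay on opposite sides, mknk1 at 32.3 and 11.4 CPM in SBS, against 5.97, 7.53 and 4.80 CPM in sham, and mknk2a at 47.3 and 29.2 CPM in SBS, against 152, 171 and 175 CPM in sham. The copy mknk2b lay on the side of mknk2a, at 156 and 46.8 CPM in SBS, against 375, 196 and 240 CPM in sham. The methionine aminopeptidase gene metap1 was at 39.7 and 62.8 CPM in SBS, against 267, 127 and 221 CPM in sham (log2 fold change -1.999, adjusted p = 0.0672 in the quasi-likelihood test of edgeR), whereas metap2a was called higher. The copy metap2b, at a far higher level than metap2a, lay lower in SBS, at 103 and 104 CPM, against 139, 160 and 141 CPM in sham. The S6 kinase gene rps6kb1b was at 33.3 and 29.9 CPM in SBS, against 75.2, 65.7 and 80.4 CPM in sham (-1.22, adjusted p = 0.0546).

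The spread between libraries was also read for the members. The median absolute difference between SBS replicates 1 and 3 was 0.303 on the log2 scale over the 80 members and 0.580 over all genes. The median SD among the sham libraries was 0.284 over the members and 0.259 over all genes. An absolute difference and an SD are unlike measures, so the SBS and sham values cannot be set against each other.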
